A study of Mus musculus with 4 samples.

Results

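Cells of the solitary isolated lymphoid tissues (SILT) of the mouse colon were compared between Csf2-/- and wild-type mice, lineage by lineage. SILT are the small lymphoid aggregates scattered along the gut wall. One single-cell library came from Csf2-/-:CX3CR1-GFP/+:CCR2-RFP/+ mice and the other from Csf2+/+:CX3CR1-GFP/+:CCR2-RFP/+ mice, so both groups carry 1 reporter allele at each of those chemokine receptor genes. No treatment and no age is given. The design text names 5 mice, and whether a library pools several animals is not stated. Cells had been enriched by positive selection for CD11b, an integrin chain of myeloid cells. Barcodes with 200 or more genes and no more than 10% of UMIs (unique molecular identifiers, each standing for 1 captured transcript) from mitochondrial genes were kept. Cells were then placed in 5 lineages by UMIs of a few genes: endothelial with at least 4 of Kdr and Flt1, mural with at least 4 of Pdgfrb and Notch3, dendritic with at least 2 of Flt3, monocyte-macrophage with at least 2 of Csf1r, and B cell with at least 2 of Cd79a. A cell passing exactly one gate is a member, which gave 5988 cells of 10092 kept from both SILT libraries and 16557 kept in the whole series of 4 libraries.

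CSF2 (GM-CSF) is a cytokine that acts on myeloid cells through a ligand-binding alpha chain, encoded by Csf2ra, and a signalling beta chain, encoded by Csf2rb, and it activates STAT5. In the gut it is made largely by innate lymphoid cells and supports dendritic cells and macrophages. Endothelial and mural cells build the vessel wall and B cells form the follicles of SILT, so these lineages offer a comparison for the myeloid ones within the same libraries.

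With 1 library per genotype there is nothing to test across mice. The 95% intervals given with shares (exact binomial) and ratios (exact conditional binomial) cover counting error only. The intervals are not adjusted for the number of genes, and the spread between mice is not measured. The Csf2-/- library held 21225800 UMIs over 2578 barcodes and the wild-type library 67656927 over 8041, of which 2378 and 7714 barcodes were kept with medians of 7204 and 5886 UMIs. The libraries shared 3 barcodes. Of the kept cells, 64.2% in Csf2-/- and 57.8% in wild type passed one gate, 10.4% and 8.63% passed several, and the rest none. The 7 fixed markers of each lineage, which the gates did not use, were all detected in their own lineage in both libraries, as were some sets of other lineages. In CPM (a gene's UMIs scaled to a common total) each set summed highest in its own gate. Csf2-/- B cell markers came close, at 2595 CPM there and 2575 in mural cells. In the dendritic gate monocyte-macrophage markers summed to 1111 CPM in wild type and 909 in Csf2-/-, against 938 and 883 for dendritic markers. The names below are therefore those of the gates. Markers of other cells also differed. The 7 epithelial markers summed to 899 CPM over the wild-type library and 24.3 over the Csf2-/- one, and the 5 neutrophil markers to 96.8 and 754.

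Monocyte-macrophage and dendritic cells took a larger share of the Csf2-/- library, and endothelial and B cells a smaller one. The monocyte-macrophage gate held 933 cells, 39.2% of kept cells (37.3 to 41.2), in Csf2-/- and 1806 cells, 23.4% (22.5 to 24.4), in wild type. For dendritic cells it was 87 cells, 3.66% (2.94 to 4.49), against 108 cells, 1.40% (1.15 to 1.69). Endothelial cells made up 334 cells, 14.0% (12.7 to 15.5), against 1704 cells, 22.1% (21.17 to 23.03). B cells stood at 123, or 5.17% (4.32 to 6.14), against 699, or 9.06% (8.43 to 9.72), and mural cells at 50, or 2.10% (1.56 to 2.76), against 144, or 1.87% (1.58 to 2.19). Only the mural intervals overlapped. These shares leave out cells that passed several gates. Both the endothelial and mural gates were passed by 143 Csf2-/- and 337 wild-type cells, more than the mural gate kept. Both the dendritic and monocyte-macrophage gates were passed by 51 and 50 cells. Cells under 2000 UMIs were then left out and the others, 1986 of 2378 Csf2-/- and 6151 of 7714 wild-type cells, thinned to 2000 UMIs, and the shares were 26.2% and 15.4% for monocyte-macrophage, 17.9% and 26.5% for endothelial, 4.38% and 9.53% for B, 2.32% and 1.24% for mural, and 0.201% and 0.130% for dendritic cells, which left 4 and 8 dendritic cells. All 5 shares were thus on the same side at a matched depth, although the thinned dendritic counts carry no order. The CD11b enrichment acts on these shares, and a different yield of the selection and a different tissue makeup cannot be told apart.

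**Figure D1:**
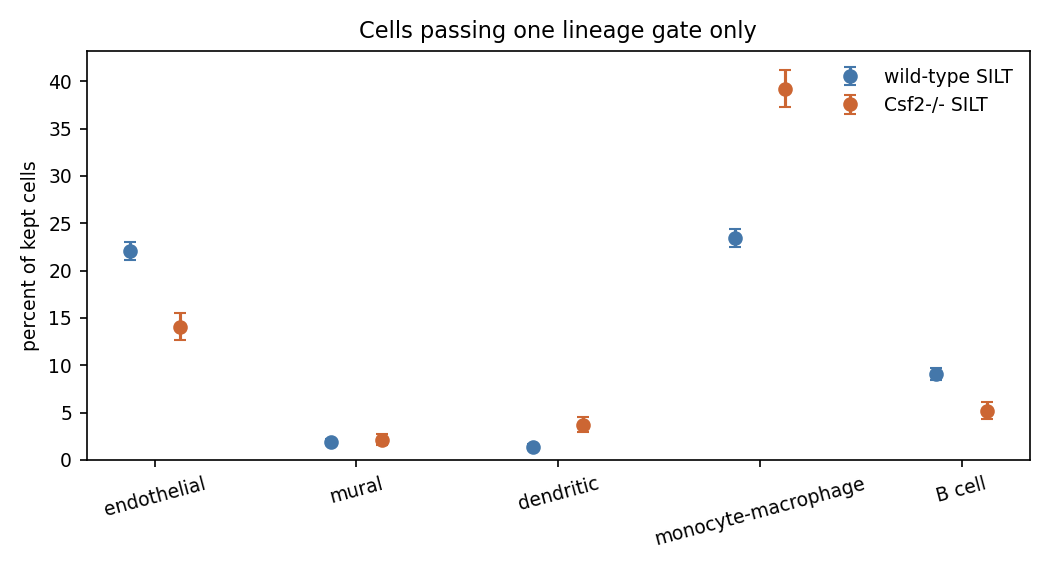
Share of kept cells passing one lineage gate only, in percent, in the wild-type and Csf2-/- SILT libraries, with exact 95% binomial intervals. The Csf2-/- point lies above the wild-type point for monocyte-macrophage cells (39.2% against 23.4%) and below it for endothelial cells (14.0% against 22.1%).

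The CD11b chain itself, encoded by Itgam, was found mainly in the monocyte-macrophage gate. There Itgam stood at 243 CPM in wild type and 289.7 in Csf2-/-, and in dendritic cells at 39.7 and 77.7. Endothelial cells held 4.02 and 3.25 CPM, B cells 18.7 and 15.5, and mural cells no Itgam UMI in either library. An Itgam UMI was found in 25 of 1704 wild-type and 5 of 334 Csf2-/- endothelial cells and in 59 of 699 and 9 of 123 B cells, so most cells of these lineages had no detected CD11b transcript.

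Csf2 (chromosome 11, 54247271 to 54249667, GRCm38) was found in the wild-type library only. It gave 24 UMIs in 11 cells, 21 of them in cells that passed no gate and 3 in gated cells. No Csf2 UMI was seen among the 2378 Csf2-/- cells, which allows up to 0.144 CPM.

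Both chains of the CSF2 receptor were higher in the Csf2-/- monocyte-macrophage cells. Csf2ra was 112 CPM in wild type and 178 in Csf2-/-, 1.59-fold higher (1.49 to 1.70), and in dendritic cells 94.2 and 130.1, 1.38-fold higher (1.10 to 1.74). For Csf2rb the monocyte-macrophage levels were 100.3 and 142 CPM, a ratio of 1.42 (1.32 to 1.53), and the dendritic levels 99.8 and 121, a ratio of 1.21 whose interval includes 1 (0.960 to 1.53). The near-identical copy Csf2rb2, the IL-3 receptor beta chain, was 31.0 and 36.5 CPM in monocyte-macrophage cells, and reads of the paralogs can be exchanged. In the other 3 lineages every receptor chain was under 20 CPM in both libraries, so receptor transcripts were concentrated in the myeloid gates.

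Pim1, a kinase gene that STAT5 induces, was not lower in any lineage where it was measured. In monocyte-macrophage cells Pim1 was 172 CPM in wild type and 376 in Csf2-/-, 2.19-fold higher (2.09 to 2.30). Endothelial cells, with few receptor UMIs, had 33.5 and 78.7 CPM, 2.35-fold higher (1.99 to 2.78). B cells had 206 and 392 CPM and dendritic cells 402 and 506, so the smallest ratio was the dendritic one at 1.26 (1.12 to 1.41). Of the 21 genes listed for the receptor and STAT5 response, 9 were measured in monocyte-macrophage cells, with 2 at least 1.5-fold higher, none lower by that much and a median log2 ratio of 0.24. That compares with a median of 0.02 over all 3171 genes measured there, of which 5.71% were at least 1.5-fold higher and 4.32% lower. In dendritic cells 11 of the list were measured, 1 was higher and 2 were lower by 1.5-fold, and the median was 0.08, beside 10.5% and 7.41% of all genes.

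The next question was which genes differed in every lineage and which in one. A gene counted as measured in a lineage with at least 30 UMIs over both libraries and at least 50 CPM in 1 of them. Over the 1555 genes measured in all 5 lineages, 3 were at least 1.5-fold higher in Csf2-/- in each lineage (0.193%) and 7 at least 1.5-fold lower (0.45%). The 3 higher genes were Xist, Ogt and Pan3. The 7 lower ones were the histone genes Hist1h1e and Hist1h4d, the chaperone gene Pdia3, the antibody gene Iglc1, and AY036118, Gm42418 and Gm10076. None of the 10 lies on chromosome 11, which carries Csf2. The share of measured genes on that chromosome was not counted, so nothing is drawn from this.

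Hist1h1e and Hist1h4d encode a linker histone, which binds DNA between nucleosomes, and a core histone H4. Hist1h1e in wild-type and Csf2-/- cells was 162 and 49.5 CPM in endothelial, 193 and 24.6 in mural, 294 and 54.1 in dendritic, 124 and 42.9 in monocyte-macrophage, and 205 and 51.0 in B cells. It was thus 2.88-fold lower in monocyte-macrophage cells (2.59 to 3.22) and 5.43-fold lower in dendritic cells (4.18 to 7.17), and the highest Csf2-/- level lay below the lowest wild-type level across the 5 lineages. Hist1h4d was 95.2 and 48.7 CPM in endothelial, 67.2 and 24.6 in mural, 139 and 62.5 in dendritic, 50.3 and 19.8 in monocyte-macrophage, and 50.5 and 12.7 in B cells. The mural values rest on 6 Csf2-/- UMIs for each histone gene. Hist1h1e overlaps Hist1h2be and Gm11398, so its counts are uncertain to that extent.

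The 16 listed linker and replication-linked histones differed by lineage. In dendritic cells 13 were measured, 8 were at least 1.5-fold lower, none was higher by that much, and the median log2 ratio was -1.15. For monocyte-macrophage cells it was 5 lower of 9 measured with a median of -1.34, for B cells 6 lower of 8 with -1.55, and for mural cells 4 lower of 5 with -1.57. In endothelial cells 3 of 8 were lower and 1 was higher, with a median of -0.02. The shares of all genes at least 1.5-fold higher and lower were 6.95% and 2.21% in endothelial, 15.7% and 11.9% in mural, and 5.03% and 13% in B cells, with the monocyte-macrophage and dendritic shares given above. Hist1h1b, another linker histone gene, was 428 and 86.2 CPM in dendritic and 69.2 and 5.96 in monocyte-macrophage cells. Many of these genes are transcribed mainly in S phase. The cell cycle list was also low in dendritic cells, where 10 of 11 measured members lay below 0 with a median of -0.49. In endothelial cells all 6 measured members lay above 0 with a median of 0.52, but Mki67, given below, rests there on few Csf2-/- cells. Whether capture of histone transcripts, or of Gm42418 and AY036118 described below, differed between the libraries was not tested. Among endothelial cells without a UMI of Mki67 or Top2a, markers of division, Hist1h1e was 144.4 CPM in 1621 wild-type and 34.2 CPM in 324 Csf2-/- cells, a log2 ratio of -2.08. In the 83 and 10 endothelial cells with such a UMI it was 322 and 281 CPM, a ratio of -0.20. The split was added after the values were seen, and Hist1h1e had already been selected as lower in this lineage. A cell without these UMIs can still be dividing, so the split does not separate dividing cells from others. The part of dividing cells in the histone values was not tested in any lineage.

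The promoters of 4 of the coding genes shared by all lineages are shown so that the lower histone genes can be read beside a lower chaperone gene and a higher gene. Each runs from 250 bases before to 50 after the RefSeq start (GRCm38.p6), 5′ to 3′ on the gene's strand, and 7 of the 10 genes had an entry. Capitals mark CCAAT, the box bound by the factor NF-Y, on either strand, and TATAAA, the TATA box core. Hist1h1e is at chr13:23622509-23622808 on the minus strand, Hist1h4d at chr13:23581318-23581617, Pdia3 at chr2:121413652-121413951 and Ogt at chrX:101639801-101640100, all 3 on the plus strand.
Hist1h1e: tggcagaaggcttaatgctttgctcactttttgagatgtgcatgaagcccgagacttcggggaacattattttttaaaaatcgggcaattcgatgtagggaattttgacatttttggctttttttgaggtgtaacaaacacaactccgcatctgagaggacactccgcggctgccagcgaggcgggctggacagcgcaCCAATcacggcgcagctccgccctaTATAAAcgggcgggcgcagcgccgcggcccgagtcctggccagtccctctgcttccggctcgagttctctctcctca
Hist1h4d: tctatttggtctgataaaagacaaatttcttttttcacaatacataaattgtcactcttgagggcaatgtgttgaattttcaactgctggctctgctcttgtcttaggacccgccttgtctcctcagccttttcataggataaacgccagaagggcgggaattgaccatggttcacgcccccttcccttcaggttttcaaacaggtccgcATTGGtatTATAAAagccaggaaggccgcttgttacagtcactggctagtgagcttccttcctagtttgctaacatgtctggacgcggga
Pdia3: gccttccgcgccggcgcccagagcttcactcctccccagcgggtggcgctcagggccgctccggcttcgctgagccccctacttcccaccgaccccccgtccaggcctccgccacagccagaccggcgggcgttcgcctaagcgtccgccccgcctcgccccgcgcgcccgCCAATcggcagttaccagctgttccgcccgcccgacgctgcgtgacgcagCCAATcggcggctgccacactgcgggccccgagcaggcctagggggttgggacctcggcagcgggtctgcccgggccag
Ogt: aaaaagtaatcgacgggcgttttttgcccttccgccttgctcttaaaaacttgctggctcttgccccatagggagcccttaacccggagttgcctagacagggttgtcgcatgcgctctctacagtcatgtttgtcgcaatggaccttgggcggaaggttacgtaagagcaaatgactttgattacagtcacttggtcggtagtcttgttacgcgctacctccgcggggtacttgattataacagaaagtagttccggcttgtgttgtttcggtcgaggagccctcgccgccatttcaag
Counted from the start, Hist1h1e holds CCAAT at -52, TATAAA at -27 and TTCNNNGAA, the letters of a STAT motif, at -195 (left in lower case), and Hist1h4d holds CCAAT at -40, read as ATTGG on this strand, and TATAAA at -32. Pdia3 has CCAAT at -79 and -29 and no TATAAA, and Ogt and Pan3 have neither. Among 32851 RefSeq promoters of this length, 37.4% hold CCAAT and 13.6% hold TATAAA, so a match alone does not set these genes apart. TTCNNNGAA is in 8.30% of them and in none of the other 3 shown or Pan3. The E-box CACGTG, the cyclic AMP element TGACGTCA and the ER stress element were also searched on both strands, are in 7.15%, 1.79% and 0.119% of promoters, and are in none of these 5 genes' windows.

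Pdia3, a disulfide isomerase of the endoplasmic reticulum that folds glycoproteins and helps load MHC class I, was lower by a similar ratio in each lineage. It was 560.2 CPM in wild type and 347 in Csf2-/- in endothelial cells, 542 and 258 in mural, 849 and 424 in dendritic, 675 and 399 in monocyte-macrophage, and 493 and 267 in B cells. The decrease ran from 1.62-fold in endothelial to 2.10-fold in mural cells. A list of 16 chaperones of that compartment, Pdia3 included and added after the values were seen, differed less, with medians of -0.15 in endothelial, -0.19 in dendritic, -0.20 in monocyte-macrophage -0.58 in mural and 0.10 in B cells.

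Ogt, an X-linked gene for the enzyme that adds O-GlcNAc to nuclear and cytoplasmic proteins, was higher in each lineage. Its levels were 43.3 and 83.0 CPM in endothelial, 119 and 226 in mural, 41.5 and 95.5 in dendritic, 63.9 and 112 in monocyte-macrophage, and 54.4 and 108 in B cells, wild type first. Pan3, a subunit of a poly(A) tail shortening complex, was 59.5 and 93.1 CPM in endothelial, 47.2 and 86.1 in mural, 55.2 and 96.3 in dendritic, 51.0 and 78.9 in monocyte-macrophage, and 36.9 and 57.4 in B cells. Ratios of Ogt spanned 1.75 to 2.30 and those of Pan3 1.55 to 1.82, so both were small and even.

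**Figure D2:**
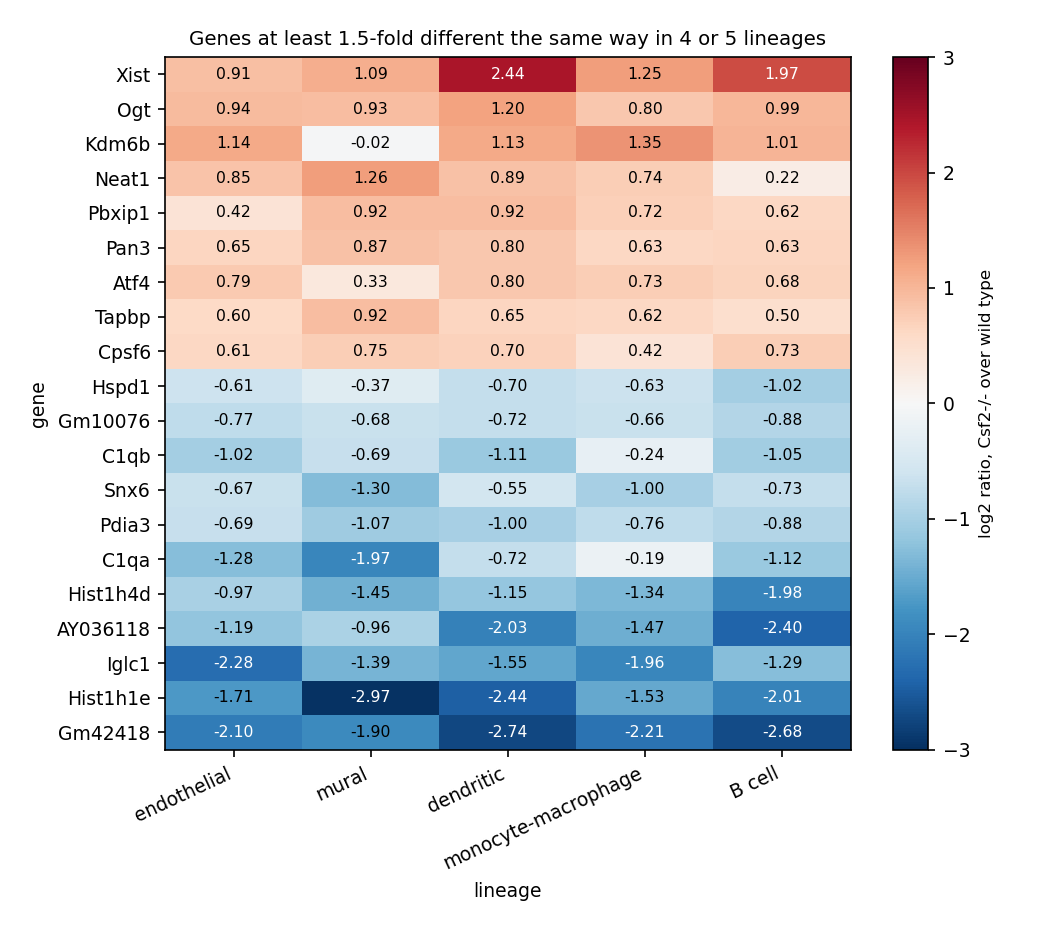
Log2 ratio of CPM, Csf2-/- over wild-type SILT, for genes at least 1.5-fold different the same way in 4 or 5 of the 5 lineages (rows) by lineage (columns). Hist1h1e and Gm42418 are among the lowest in every column, and Xist is highest in dendritic (2.44) and B cells (1.97).

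Xist, the long noncoding RNA that coats the inactive X of female cells, was the most uneven shared gene. It was 294 CPM in wild type and 551 in Csf2-/- in endothelial cells, 289 and 615 in mural, 107 and 580.4 in dendritic, 279.8 and 663 in monocyte-macrophage, and 138 and 539 in B cells. Both libraries held cells with Xist and cells with Y-linked UMIs, and their mix differed between lineages. Among cells with UMIs of one kind only, Xist cells made up 68.4% to 77.8% in each Csf2-/- lineage. In wild type they made up 72.5% in endothelial and 72.4% in mural cells, but 52.2% (49.3 to 55.0) in monocyte-macrophage, 27.5% (18.6 to 37.8) in dendritic and 24.8% (20.6 to 29.4) in B cells. The Y-linked Ddx3y, an RNA helicase gene, was 51.1 and 20.0 CPM in B cells and 36.9 and 48.0 in endothelial cells. In the haematopoietic lineages the genotypes thus differed in that mix, and in the vessel lineages their intervals overlapped.

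Because of this mix, each shared gene was also compared among Xist-only and among Y-only cells, a split chosen after the values were seen. Hist1h1e, Gm42418, Ogt, Iglc1 and AY036118 stayed past 1.5-fold the same way in 5 of 5 lineages in both kinds of cell. Pdia3 did so in 5 lineages of Xist-only and 4 of Y-only cells, Hist1h4d in 4 and 5, Gm10076 in 5 and 3, and Pan3 in 3 and 4. The Y-only comparison rested on 8 Csf2-/- and 29 wild-type mural cells, and on 20 and 300 B cells. All these genes had been selected for passing 1.5-fold in lineages that include these same cells. The split is therefore no independent check on them. Xist itself had log2 ratios of 0.89 to 1.23 within Xist-only cells. Those cells were chosen by an Xist UMI, so this is no independent check on Xist. For Iglc1 and Hist1h4d, 1 lineage of Y-only cells had no Csf2-/- UMI. The Xist ratios in dendritic and B cells were smaller within Xist-only cells, a choice that leaves out every cell without Xist.

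**Figure D3:**
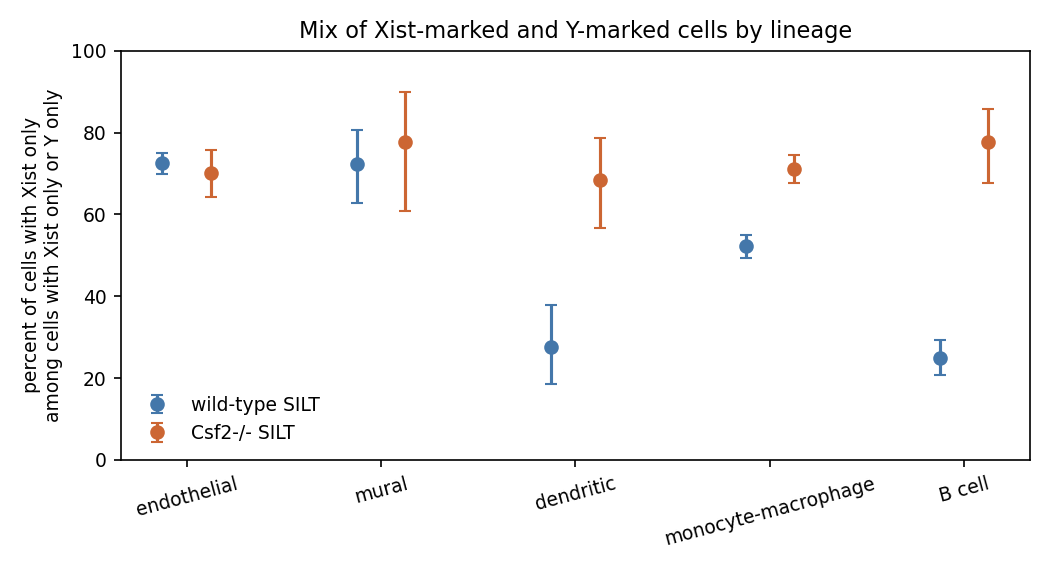
Percent of cells with Xist only among cells with Xist only or Y-linked UMIs only, by lineage, with exact 95% binomial intervals. Wild-type dendritic (27.5%) and B cells (24.8%) lie far below the Csf2-/- values (68.4% and 77.8%), and the endothelial values (72.5% and 70.2%) overlap.

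Gm42418, a transcript in a ribosomal RNA locus that overlaps AY036118, was 33112 CPM in wild type and 7708 in Csf2-/- in endothelial cells and 44584 and 9631 in monocyte-macrophage cells. Its log2 ratio lay between -2.74 in dendritic and -1.90 in mural cells, and that of AY036118 between -2.40 and -0.96. Gm10076 had log2 ratios from -0.88 to -0.66. Iglc1, a lambda light chain constant gene, was 65.1 and 13.4 CPM in endothelial and 76.6 and 19.7 in monocyte-macrophage cells, lineages that do not make antibody, and the part of free RNA in these values was not tested. In B cells it was 5836 and 2393 CPM, but 1 wild-type cell held 18279 of 37123 UMIs, and without the Jchain-high cells described below the B cell levels were 641 and 652 CPM.

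Genes past 1.5-fold in 4 of the 5 lineages add 6 higher and 4 lower, named here after their values were seen. Kdm6b, a histone H3K27 demethylase gene, was 57.1 and 126 CPM in endothelial, 60.2 and 154 in monocyte-macrophage, 64.5 and 141 in dendritic and 48.9 and 98.3 in B cells, but 100.1 and 98.4 in mural cells. The other higher genes were Neat1, Pbxip1, Atf4, Tapbp and Cpsf6, and the lower ones Hspd1, Snx6, C1qa and C1qb. C1qa and C1qb encode complement C1q chains made by macrophages, and they were lowest relative to wild type outside macrophages. C1qa was 81.4 and 33.6 CPM in endothelial and 115 and 52.8 in B cells, against 4415 and 3884 in monocyte-macrophage cells, a log2 ratio of -0.19 there. The part of free macrophage RNA in this pattern was not tested.

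Past 2-fold in monocyte-macrophage cells were 26 higher genes of 3171 measured (0.82%) and 61 lower ones (1.92%). Genes of circulating monocytes were among the higher ones. Ly6c2, which encodes the Ly6C antigen of inflammatory monocytes, was 65.6 CPM in wild type and 163 in Csf2-/-, 2.49-fold higher (2.31 to 2.69). Itgal, the LFA-1 integrin alpha chain, was 40.7 and 123 CPM, 3.03-fold higher (2.76 to 3.33). Thbs1, encoding thrombospondin, was 20.2 and 55.7 CPM, and Chil3, a chitinase-like protein gene, 25.9 and 55.6. Of the 14 monocyte genes listed, 10 were measured, 7 were at least 1.5-fold higher, none was lower by that much, and the median log2 ratio was 1.03. The same list in dendritic cells had 4 higher and none lower of 6 measured, with a median of 0.94. In that gate the 5 neutrophil markers summed to 1.24 CPM in wild type and 1108 in Csf2-/-. The mix of Xist and Y cells also differed in both gates, as given above. The part of other cells and of this mix in the monocyte gene values was not tested.

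Resident macrophage genes differed less. Of the 19 listed, 18 were measured, 2 were at least 1.5-fold lower and none higher by that much, with a median of -0.21. Lyve1, the hyaluronan receptor of perivascular macrophages, was 421 and 258 CPM, 1.63-fold lower (1.55 to 1.71), and Pf4, a platelet-type chemokine gene, 3164 and 2387 CPM. Cells with at least 10 UMIs of the C1q genes made up 64.6% of the Csf2-/- gate (603 of 933 cells) and 78.8% of the wild-type gate (1423 of 1806). This cut is a range and not a type, with 5 and 15 cells near it. Within the C1q-high cells Ly6c2 was 16.2 and 43.1 CPM, and within the C1q-low cells 291 and 469.9 CPM. Plac8, a monocyte gene, was 107 and 244 CPM in the former and 1522 and 2332 in the latter. Chil3, named above, had a log2 ratio of 2.11 in C1q-high cells but only 0.29 in C1q-low cells. These genes were thus higher in Csf2-/- on each side of the cut, Chil3 only slightly in C1q-low cells, beside a larger share of C1q-low cells.

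Several single genes of the gate differed more and were picked after their values were seen. Retnla, a resistin-like gene of alternatively activated macrophages, was 475 CPM (8663 UMIs in 172 cells) in wild type and 35.1 CPM (312 UMIs in 24 cells) in Csf2-/-, 13.5-fold lower (12.1 to 15.2). It was lower in C1q-high cells (410.1 and 44.3 CPM) and in C1q-low cells (768 and 11.6 CPM), and in Xist-only cells (261 and 51.1 CPM) as well as Y-only cells (686 and 24.8 CPM). Sirpb1c, a signal regulatory protein gene, was 29.2 and 79.6 CPM. Ccl8, a chemokine gene, was 178 and 77.9 CPM, and Gbp2b, a guanylate-binding protein gene, 64.5 and 27.8. Cxcl10 and Cxcl9, chemokines that interferon induces, were instead higher at 26.7 and 81.1 CPM and at 30.7 and 67.9 CPM, although 1 Csf2-/- cell held 272 of the 603 Cxcl9 UMIs. Cxcl9 was higher in C1q-high cells (19.2 and 76.8 CPM) and lower in C1q-low cells (82.8 and 45.1 CPM), while Cxcl10 was higher in both (28.7 and 79.8 CPM, and 17.7 and 84.6 CPM). The alarmin gene S100a9 was 16.7 and 98.9 CPM, from 20 and 58 cells, and the 5 neutrophil markers summed to 54.6 and 244 CPM in the gate. The part of neutrophils in the S100a9 value was not tested.

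Il22ra2, the gene for the soluble decoy receptor of IL-22, depended on the kind of cell. Over the monocyte-macrophage gate it was 161 CPM (235 cells) in wild type and 78.8 CPM (43 cells) in Csf2-/-, 2.05-fold lower (1.88 to 2.23). Among Y-only cells it was 267 and 79.6 CPM, a log2 ratio of -1.75, but among Xist-only cells 35.0 and 59.1 CPM, a log2 ratio of 0.76 in the other direction. The overall ratio thus goes with the wild-type Y-marked cells, and animals and genotype cannot be told apart here. In C1q-high cells the levels were 187 and 92.4 CPM and in C1q-low cells 43.2 and 43.9 CPM.

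Of 2555 eligible genes, 4 (0.157%) were at least 2-fold different in monocyte-macrophage cells while under 1.5-fold the same way in every other lineage measured, and all 4 were lower. They were Mfge8, a bridging protein for apoptotic cells, at 80.9 and 14.5 CPM, the collagen gene Col3a1 at 145 and 47.9, the matrix protein gene Sparc at 132 and 53.4, and Mgst3, a glutathione transferase gene, at 85.0 and 40.2. Each was highest in mural cells, where Col3a1 reached 1789 CPM in wild type. All 7 fibroblast markers were detected in the gate in both libraries and summed to 526 and 206 CPM. Within C1q-high cells the log2 ratio of Col3a1 was -2.56 and within C1q-low cells 1.14, and those of Sparc were -2.28 and 0.49, so for both genes the direction was not shared. Genes of gut epithelium were lower still, picked after their values were seen: the mucin gene Muc2 was 62.0 CPM in wild type and 1 UMI in Csf2-/-, and the creatine kinase gene Ckmt1 was 72.4 CPM and no UMI, at least 215-fold lower against a floor of 3 UMIs. The 7 epithelial markers summed to 535 and 8.44 CPM in the gate, and the part of epithelial RNA in these values was not tested.

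**Figure D4:**
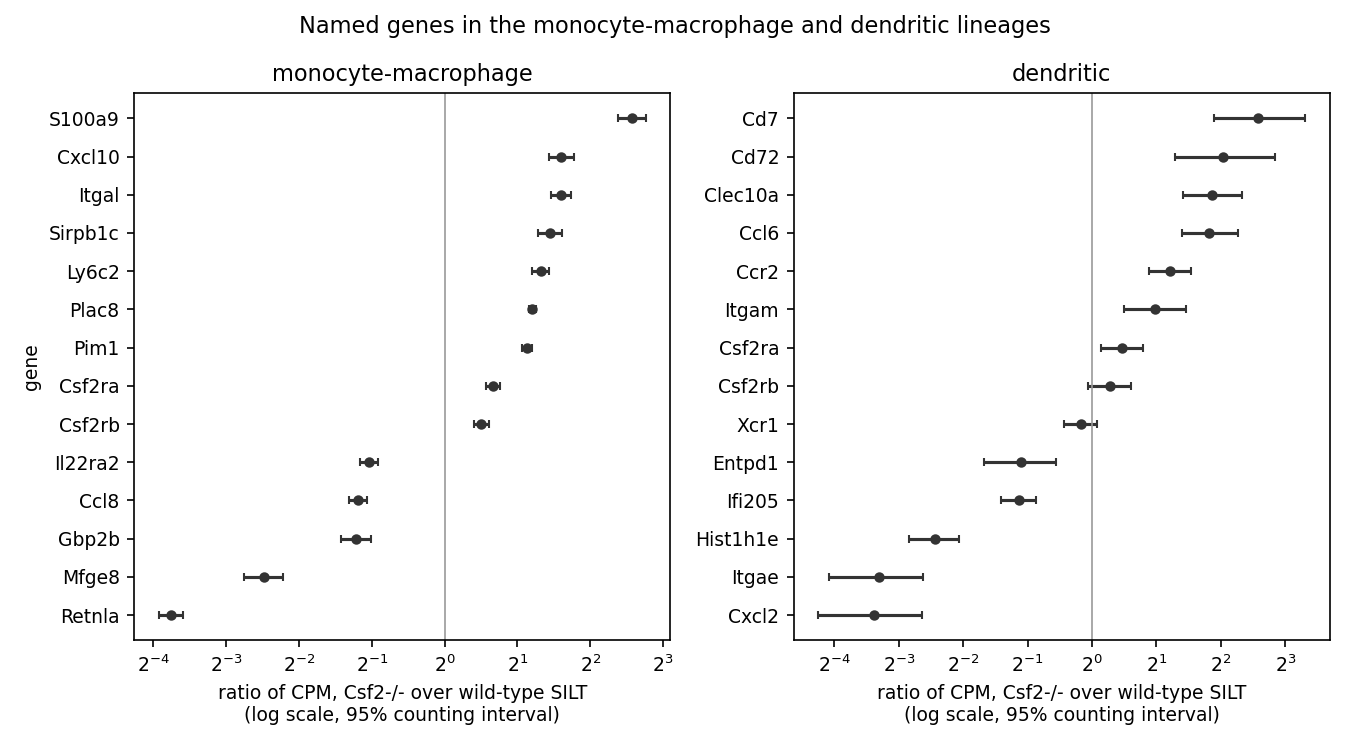
Ratio of CPM, Csf2-/- over wild-type SILT (log scale), with 95% counting intervals, for selected genes in the monocyte-macrophage (left) and dendritic (right) lineages. Intervals are wider in dendritic cells, and of the genes shown Retnla (left) and Itgae and Cxcl2 (right) lie lowest.

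From 87 and 108 dendritic cells, 72 of 2888 measured genes passed 2-fold upward (2.49%) and 63 downward (2.18%). The 7 epithelial markers summed to 363 CPM in wild-type and 52.4 in Csf2-/- dendritic cells, and their part in the lower genes was not tested. Genes of type 2 dendritic cells, the CD11b-positive kind, lay above the median of all genes, which was -0.01, as did the monocyte list given above. Of the 10 listed, 8 were measured, 6 were at least 1.5-fold higher, none was lower by that much, and the median log2 ratio was 0.86. Cd7, an immunoglobulin superfamily receptor gene, was 13.6 CPM (22 UMIs) in wild type and 81.1 CPM (96 UMIs) in Csf2-/-, 5.95-fold higher (3.71 to 9.93). Clec10a, a galactose-binding lectin gene, was 35.3 and 128 CPM, 3.64-fold higher (2.66 to 5.02), and Mgl2, its near neighbour in sequence, 147 and 166 CPM with a ratio of 1.13 (0.929 to 1.37). Reads of these paralogs can be exchanged. Ccr2, the monocyte chemokine receptor gene of which all these mice carry 1 reporter allele, was 80.6 and 186 CPM in dendritic and 212 and 308 in monocyte-macrophage cells, and was picked after its values were seen. In dendritic cells Itgam had a ratio of 1.96 (1.41 to 2.74). As given above, the dendritic gates differed in their mix of Xist and Y cells. The part of this mix in the type 2 dendritic, Ccr2 and Itgam values was not tested.

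Type 1 dendritic genes, those of the cross-presenting kind, stood nearer to wild type, with 2 lower and none higher by 1.5-fold of 9 measured and a median of -0.08. Xcr1, its chemokine receptor, was 196 and 173 CPM with a ratio of 0.884 (0.738 to 1.06), Clec9a, a receptor for dead cells, 94.8 and 58.3 CPM, and Ifi205, an interferon-inducible gene, 278 and 127 CPM. Cells with a UMI of Xcr1 or Clec9a made up 43.7% of the gate in Csf2-/- (33.1 to 54.7; 38 of 87 cells) and 52.8% in wild type (57 of 108), and the intervals overlap.

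Itgae, the CD103 integrin chain that binds epithelial E-cadherin, was lower among dendritic cells with and without these markers, and was picked after its values were seen. It was 151 CPM (243 UMIs in 50 cells) in wild type and 15.2 CPM (18 UMIs in 8 cells) in Csf2-/-, 9.90-fold lower (6.13 to 17.0). Cells with an Xcr1 or Clec9a UMI had 195 and 25.8 CPM and the others 76.4 and 1.91. Among Xist-only cells the Itgae log2 ratio was -2.80 and among Y-only cells -3.78. Il22ra2 gave 248 UMIs in 26 wild-type cells and 2 in Csf2-/- dendritic cells, a ratio of 0.0110 (0.00132 to 0.0401), but 213 of the wild-type Il22ra2 UMIs came from 66 Y-only cells and 3 from 25 Xist-only cells. Cxcl2, a neutrophil chemokine gene, was 133 and 12.7 CPM, with 112 of its 214 wild-type UMIs in 1 cell.

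In dendritic cells 17 of 2361 genes (0.72%) met the same one-lineage definition, 14 higher and 3 lower, and other settings gave between 2 and 78 such genes. The most different higher genes were Cd72, an inhibitory receptor gene best known from B cells, at 12.4 and 50.7 CPM, the chemokine gene Ccl6 at 39.7 and 140.2, the cytolinker gene Plec at 36.6 and 89.6, Wfdc17 at 105 and 254 and Tent5a at 68.8 and 161. Of these, Ccl6, Wfdc17 and Tent5a were highest in monocyte-macrophage cells of the wild type, where Ccl6 was 484 and 534 CPM. Ccl6 differed the other way in B cells, at 89.3 and 20.0 CPM, and met the definition there too. Lower were Plgrkt, a plasminogen receptor gene, at 55.2 and 21.1 CPM, and Entpd1, the CD39 ectonucleotidase that degrades extracellular ATP, at 68.8 and 32.1 CPM, 2.14-fold lower (1.47 to 3.18). Entpd1 was 148 and 107 CPM in monocyte-macrophage and 399 and 325 in endothelial cells. The neutrophil markers summed to 1.24 CPM in wild-type and 1108 in Csf2-/- dendritic cells, where 1 cell held 466 of 636 S100a9 UMIs, and these values are therefore not read as dendritic.

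In B cells 25 of 2168 measured genes passed 2-fold upward (1.15%) and 94 downward (4.34%), and the median log2 ratio over all genes was -0.15. The gate mixed B cells with antibody-secreting cells. Cells with at least 10 UMIs of the antibody joining chain gene Jchain were 28 of 123 in Csf2-/- and 134 of 699 in wild type, and they carried 734985 of 1098236 and 3976088 of 6361262 UMIs. Immunoglobulin genes took 38.3% of the UMIs in Csf2-/- and 30.2% in wild type, which lowers the CPM of every other gene. Without the Jchain-high cells the median was 0.03, with 104 genes higher and 132 lower of 3063. The lower ones included epithelial genes such as Lgals4 and Krt8, with 795 and 285 wild-type UMIs and none in Csf2-/-. Over the whole gate the 7 epithelial markers summed to 482 CPM in wild type and 62.8 in Csf2-/-. The part of epithelial RNA in the lower genes was not tested.

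Among the remaining B cells Cxcr4, Bcl11a and Spib were higher, and Bcl11a was picked after its values were seen. The mix of Xist and Y cells differed in this gate as given above, and its part in these differences was not tested. Cxcr4, the receptor that guides cells within follicles, was 230.2 CPM in wild type and 567 in Csf2-/-, 2.46-fold higher (2.09 to 2.90). Bcl11a and Spib, transcription factor genes of B and plasmacytoid cells, were 187 and 465 CPM and 78.8 and 195 CPM, each 2.48-fold higher. Over the whole gate Cxcr4 was 93.7 and 199 CPM and Spib differed by a log2 ratio of 1.07. Ighd and Fcer2a, the IgD chain and the CD23 receptor of follicular B cells, were 185 and 160.3 CPM and 88.2 and 68.3 CPM over the whole gate. Without Jchain-high cells Ighd was 479.6 and 473.5 CPM, a ratio of 0.987 (0.836 to 1.16). Of the 10 listed follicular genes 7 were measured over the whole gate, 1 was higher by 1.5-fold, none lower, and the median was -0.21.

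The one-lineage definition, which asks only that no other measured lineage be past 1.5-fold the same way, was met in B cells by 12 of 1938 genes (0.619%), 2 higher and 10 lower. With Jchain-high cells left out 24 genes met it, and 4 of the 12 were among them. Fgl2, a fibrinogen-like gene, was 29.9 and 67.4 CPM, and Slc3a2, the heavy chain of amino acid transporters, 185 and 389.7. The Fgl2 ratio was 2.50 in Jchain-high cells and 0.386 in the rest (0.0450 to 1.51, from 2 Csf2-/- UMIs), so only the former cells carried it upward. The Slc3a2 ratio was 2.12 in Jchain-high cells (1.88 to 2.39) and 1.39 in the rest (0.959 to 1.97), an interval that includes 1. S100a6, a calcium-binding protein gene, was 669.8 and 239 CPM, 2.81-fold lower (2.48 to 3.19), and without Jchain-high cells 706 and 237 CPM. Of the other 4 named, Slc12a2 was 51.7 and 7.28 CPM, Ccl6, higher in dendritic cells, 89.3 and 20.0, Fabp4 65.6 and 15.5 and Bhlhe40 51.4 and 19.1. Fabp4, a fatty acid carrier, is an endothelial gene in these libraries at 7446 CPM, and Slc12a2 and Ccl6 were highest in mural and monocyte-macrophage cells, so these 3 are mainly genes of other lineages. The direction turned under 1 alternative each for Slc12a2 (log2 ratio 0.57 without cells holding a UMI of another gate), Ccl6 (0.41 with thinned cells) and Bhlhe40 (0.14 as a mean over cells).

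Endothelial cells, the deepest sampled lineage outside the myeloid gate, had 22 of 3840 measured genes past 2-fold upward (0.573%) and 27 downward (0.703%). None of 2465 genes (0%) met the one-lineage definition in endothelial cells, though other settings gave up to 61. Of the 27 lower genes, 24 were measured in B cells and 23 of these were past 1.5-fold the same way there, and 19 of 24 in monocyte-macrophage cells. The 7 epithelial markers summed to 258 CPM in wild-type and 15.9 in Csf2-/- endothelial cells. The part of epithelial RNA in these lower genes and in their sharing was not tested. Of the 22 higher genes only 4 were measured in at least 2 other lineages.

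Vessel genes of the endothelial gate differed in both directions. Among listed capillary genes Car4, a carbonic anhydrase gene of capillary endothelium, was 248 CPM in wild type and 117 in Csf2-/-, 2.12-fold lower (1.89 to 2.39). Aplnr, the apelin receptor, was 138 and 259 CPM, 1.87-fold higher (1.71 to 2.04), and the water channel gene Aqp1 96.7 and 171 CPM. Ephb4, the ephrin receptor of veins, was 82.2 and 155 CPM, and Tie1, an angiopoietin pathway receptor, 220.2 and 351. Of 10 listed capillary genes 9 were measured, 2 were higher and 1 lower by 1.5-fold, and the median was -0.07. For 10 venous genes it was 3 measured and 1 higher, none lower, with a median of 0.01, and Vwf, the von Willebrand factor gene, was 72.5 and 57.4 CPM. The 17 junction and growth genes had 14 measured, 1 higher and 1 lower, the latter the apelin gene Apln at 55.9 and 36.8 CPM, with a median of 0.06. All 7 measured arterial genes of 10 lay above 0 with a median of 0.29, and 1 of them passed 1.5-fold, the semaphorin gene Sema3g at 51.9 and 83.0 CPM. Cyp26b1, which degrades retinoic acid, was 50.3 and 119.9 CPM, 2.38-fold higher (2.08 to 2.73), and Tgtp2, an interferon-inducible GTPase gene, 73.4 and 25.3 CPM, both picked after their values were seen. Mki67, a marker of dividing cells, was 24.7 and 72.6 CPM, but its Csf2-/- UMIs came from 6 cells, and with cells thinned to 1000 UMIs the log2 ratio was -0.11. Haemoglobin differed too, with the 5 erythroid markers at 1156 CPM in wild type and 2373 in Csf2-/-.

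Mural cells are the pericytes and smooth muscle cells around vessels. Their gate gave the least precise values, since 50 Csf2-/- cells held 243865 UMIs and 1 UMI there is worth 4.10 CPM. The gate also held fibroblast markers at 4399 CPM in wild type and 5585 in Csf2-/-, beside 10593 and 13270 for mural markers. The part of fibroblasts in its values was not tested. Past 2-fold were 167 higher genes of 4053 measured (4.12%) and 149 lower ones (3.68%), and for 265 of the 316 the interval lay clear of 1. The one-lineage definition was met by 36 of 2439 genes (1.48%), 14 higher and 22 lower. Sdcbp, a syndecan-binding scaffold gene, was 126 and 319.8 CPM, 2.54-fold higher (1.85 to 3.49), Pi4k2a, a lipid kinase gene, 21.5 and 77.9, Pold4, a DNA polymerase subunit gene, 42.9 and 107, and Stard9, a kinesin gene, 41.5 and 107. With cells thinned to 1000 UMIs the log2 ratio of Stard9 was -1.65, the other way. Fn1, which encodes fibronectin, was 133 and 332 CPM, with 48 of 81 Csf2-/- UMIs in 1 cell. The lowest named genes were Hsd17b12, Ap1g1, Cd36, Mrpl35 and Tram1, which had 1, 3, 4, 3 and 5 Csf2-/- UMIs against 37, 53, 58, 39 and 60 in wild type. With gates doubled the log2 ratio of Cd36 was 0.50, the other way.

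Pericyte and contractile genes of mural cells lay near the median of all genes, which was 0.03, and matrix genes above it. The pericyte gene Rgs5, a regulator of G protein signalling, was 6258 and 9288 CPM, 1.48-fold higher (1.41 to 1.56), and Cspg4, the NG2 proteoglycan, 355 and 545. Smooth muscle actin, Acta2, was 1742 and 1390.1 CPM. Of 11 pericyte genes all were measured, 1 was higher by 1.5-fold and the median was 0.16, and of 11 contractile genes 9 were measured, 2 were lower and the median was -0.13. Extracellular matrix genes had 6 higher and 1 lower of 15 measured with a median of 0.38, and Col1a1 was 395 and 673 CPM beside fibroblast markers of 4399 and 5585 CPM. The immediate early list, genes induced within minutes by growth factors or tissue dissociation, had 7 lower and 1 higher of 18 and a median of -0.31 in mural cells, against medians of 0.31 in endothelial, 0.27 in dendritic, 0.34 in monocyte-macrophage and -0.08 in B cells. Fos was 2832 and 1169 CPM in mural cells and 3111 and 2981 in monocyte-macrophage cells.

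Antigen presentation genes lay somewhat above the median of all genes in the 3 haematopoietic lineages. The MHC class I list had medians of 0.47 in dendritic, 0.43 in monocyte-macrophage and 0.33 in B cells, 0.00 in endothelial and -0.19 in mural cells. All 11 measured members lay above 0 in monocyte-macrophage cells, and 2 of them were past 1.5-fold. Tap2, a peptide transporter subunit, was 32.4 and 53.7 CPM in monocyte-macrophage and 34.1 and 70.1 in B cells, and Tapbp, the tapasin that works beside Pdia3, 123 and 189 and 107 and 151. Ciita, the class II transactivator, was 161 and 285 CPM in dendritic, 101 and 169.7 in monocyte-macrophage and 70.1 and 112 in B cells. The class II list had medians of 0.33, 0.29 and 0.12 in these lineages. Only 4 of its 10 members were measured in endothelial and in mural cells, with medians of -0.42 and -0.57, on the other side. Interferon response genes had a median of 0.24 over 7 measured of 22 in monocyte-macrophage cells with 3 higher, Cxcl10 and Cxcl9 among them, and -0.06 over 17 in endothelial cells. NF-kB targets had 5 higher and none lower of 11 in monocyte-macrophage cells with a median of 0.18. Heat shock genes had a median of -0.38 over 9 in B cells and -0.21 over 9 in monocyte-macrophage cells.

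**Figure D5:**
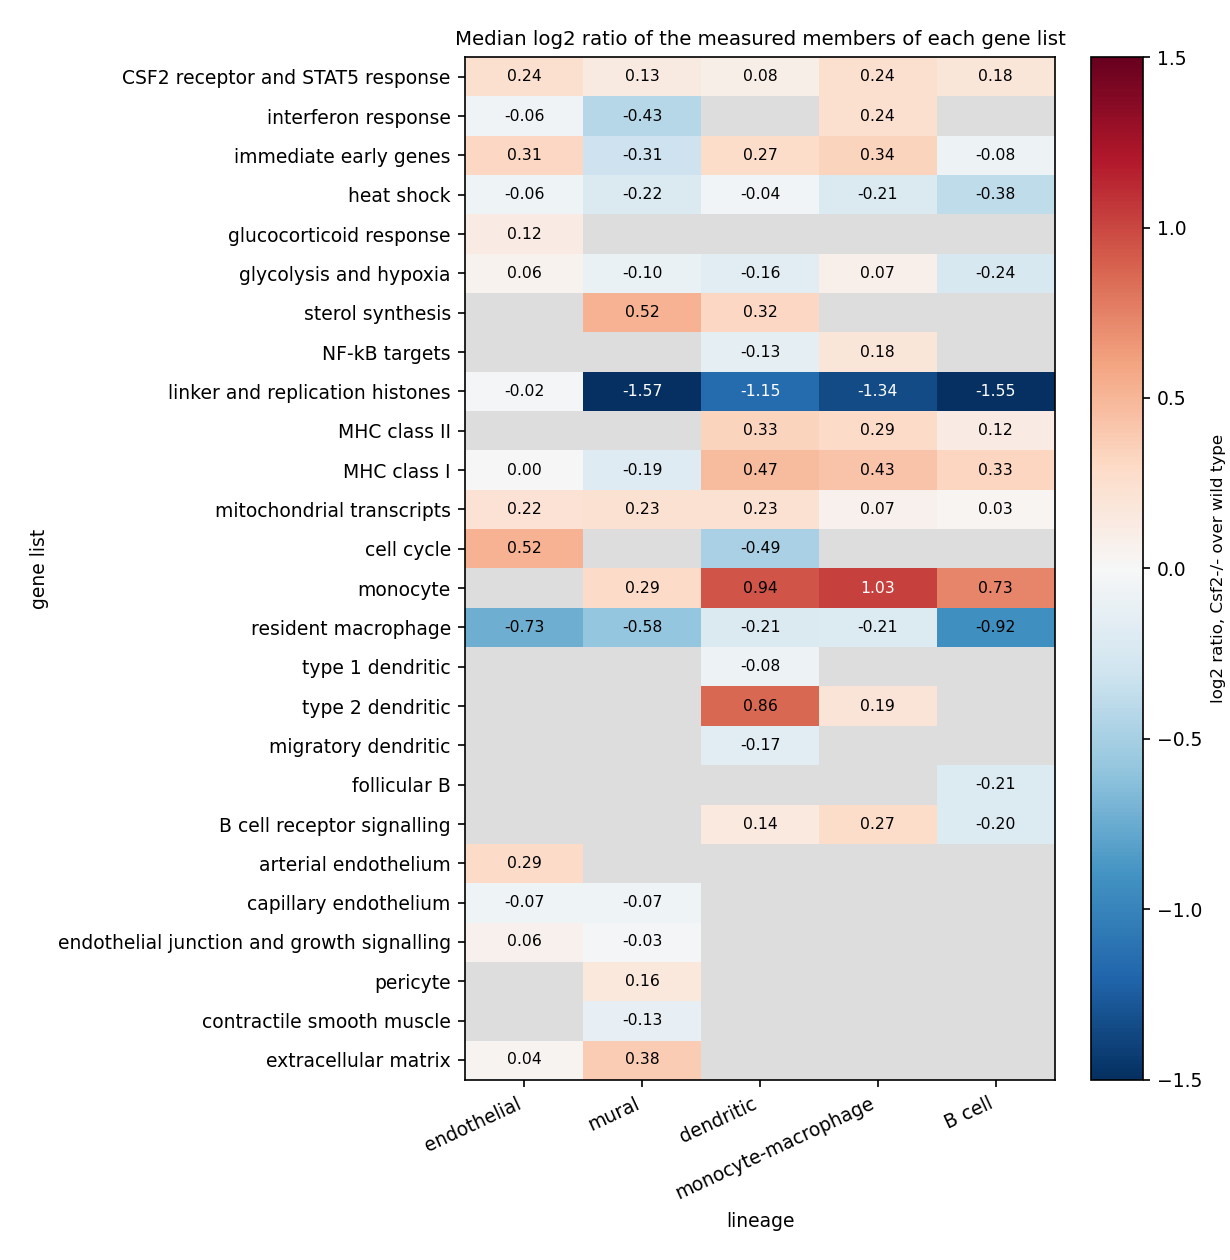
Median log2 ratio of CPM, Csf2-/- over wild-type SILT, over the measured members of each gene list (rows) in each lineage (columns), with grey where fewer than 5 members were measured. Histones are low in every column but endothelial (-0.02), and the monocyte list is high in monocyte-macrophage (1.03) and dendritic cells (0.94).

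The same gates were applied to the lamina propria libraries of the series, which came from the same 2 genotypes and again were 1 library each, and their B cell gate held 9 and 10 cells and was set aside. Over the 4 other lineages Hist1h1e was past 1.5-fold lower in each, with log2 ratios of -1.84 in endothelial, -2.46 in mural, -1.23 in dendritic and -0.93 in monocyte-macrophage cells, and so was Gm42418. Xist and Hist1h4d were past 1.5-fold the same way in 3 of 4, Pdia3 in 1 and Ogt and Pan3 in none. Of 1706 genes measured in these lineages in both tissues, 8 were higher in all 4 lineages of SILT and 3 in all 4 of lamina propria with none in common, and 6 and 8 were lower with 2 in common, Hist1h1e and Gm42418. Retnla in the lamina propria monocyte-macrophage gate was 1089 and 129 CPM and Ly6c2 38.6 and 169, both on the same side as in SILT. S100a9 was 48.1 and 3.93 CPM, on the other side. Il22ra2 was 0.853 CPM in the wild-type lamina propria gate against 161 in SILT. In lamina propria dendritic cells Itgae was 49.3 and 11.3 CPM and Cd7 22.8 and 61.6, again on the side seen in SILT. No test of the difference between tissues was possible.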

How the data were processed

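Droplet single-cell RNA was measured in 4 libraries, of which the 2 SILT libraries are compared here. The deposited values are raw UMI counts per gene and barcode, with barcodes already called by the authors. Reads were processed with Cell Ranger 2.1.1 on mm10 per the submitters' processing notes, the matrices name Cell Ranger 6.0.0 per the file headers, and the library kit is a 3' v2 kit per the labels' protocols. Counts were summed per library and lineage and scaled to CPM, in Python 3.11.15 with numpy 2.4.6, scipy 1.17.1 and pandas 2.3.3. Free RNA was not subtracted, and doublets were kept. Scrublet (scanpy 1.11.5), tried as an alternative, marked 10 of 2378 Csf2-/- and 136 of 7714 wild-type cells.

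A gene was measured in a lineage with at least 30 UMIs over both libraries and 50 CPM in 1 of them. An all-lineage gene was measured in all 5 and at least 1.5-fold different the same way in each. A one-lineage gene was measured there and in at least 2 others, at least 2-fold different there with an interval clear of 1, under 1.5-fold the same way in every other measured lineage with each difference clear of 0, and at least 1.5-fold different without the top cell of each library; gate genes were left out. A count of 0 was bounded by a floor of 3 UMIs per summed lineage.

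Named genes are the all-lineage genes, up to 5 higher and 5 lower one-lineage genes per lineage, up to 4 members of each list with the largest median difference, and the CSF2, receptor, Itgam, Xist and Ddx3y genes; others, with Iglc1 and the unnamed transcripts, were picked after their values were seen. The members, gates and lists were chosen with earlier results of these data known. The scripts were tested on simulated data. TMM factors came from edgeR 4.0.16 in R 4.3.3, as an alternative. Gene coordinates are from GENCODE M21 names and GRCm38, matched for 32158 of 32285 features.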

Additional observations from a re-analysis of the deposited data

Results flagged for a closer look

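In mural cells 5 genes differed between the genotypes in opposite directions in lamina propria and SILT, and these differences were not tested. The collagen gene Col12a1 had a log2 ratio, Csf2-/- over wild type, of -3.40 in lamina propria and 1.39 in SILT. For the thrombin receptor gene F2r the values were -1.36 and 1.05. Fibronectin, Fn1, had -2.50 and 1.32, with 48 of the 81 Csf2-/- SILT UMIs in 1 cell. Ogn, a matrix proteoglycan gene, had -3.28 and 1.26. Socs3, a feedback inhibitor of cytokine signalling, had 1.08 and -1.44. Mural values rest on 50 Csf2-/- and 144 wild-type SILT cells, and the part of fibroblasts in this gate was not tested.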

How the results depend on the processing

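Counts of genes were the results that depended most on the settings, and the cause was not tested where a setting's construction does not show it. Against 3 higher and 7 lower all-lineage genes, one-lineage counts of 0 endothelial, 36 mural, 17 dendritic, 4 monocyte-macrophage and 12 B, and 2-fold counts of 49, 316, 135, 87 and 119 in that order, the settings gave the following. With lowered gates there were 7 and 16 all-lineage genes, one-lineage counts of 2 endothelial, 3 dendritic and 9 monocyte-macrophage, and 2-fold counts of 90 endothelial and 88 dendritic. With gates doubled there were 4 lower all-lineage genes, one-lineage counts of 2 endothelial, 78 dendritic, 2 monocyte-macrophage and 7 B, and 2-fold counts of 401 dendritic, 55 monocyte-macrophage and 78 B. Thinned to 1000 UMIs, there were 1 and 2 all-lineage genes, one-lineage counts of 5 endothelial, 5 mural, 11 dendritic and 2 monocyte-macrophage, and 2-fold counts of 132 endothelial, 87 mural, 69 dendritic and 366 B. CPM without mitochondrial and ribosomal protein genes gave 7 higher all-lineage genes, one-lineage counts of 2 endothelial, 30 dendritic and 8 monocyte-macrophage, and 223 dendritic 2-fold genes. The filter of 100 CPM and 60 UMIs gave 1 higher all-lineage gene, one-lineage counts of 15 mural, 4 dendritic and 6 B, and 2-fold counts of 23, 95, 55, 39 and 54. With no filter beyond 1 UMI there were 79 and 29 all-lineage genes, one-lineage counts of 61, 61, 60, 148 and 55, and 2-fold counts of 2057, 2545, 2223, 2893 and 2288. Thresholds raised to 2-fold and 3-fold left 0 and 3 all-lineage genes, one-lineage counts of 9 mural, 2 dendritic, 2 monocyte-macrophage and 3 B, and 19, 49, 40, 51 and 74 genes past the higher fold. Asking for 4 of 5 lineages gave 9 and 11 genes. Without Jchain-high cells there were 8 higher all-lineage genes, 24 one-lineage and 236 2-fold B genes. At 500 genes and 5% mitochondrial UMIs the one-lineage counts were 1 endothelial, 2 monocyte-macrophage and 7 B. With cells holding any UMI of another gate left out they were 1 endothelial, 47 dendritic and 5 B, with 294 dendritic and 41 monocyte-macrophage 2-fold genes. The mean over cells gave 2 endothelial and TMM scaling 7 B one-lineage genes.

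Of 10 reversals among named genes, lowered gates gave log2 ratios of 1.01 for Mgp and 0.37 for Igfbp3 in mural cells, thinning -0.11 for Mki67 in endothelial, -1.65 for Stard9 in mural and 0.41 for Ccl6 in B cells, and doubled gates 0.23 for Iglc1 in B and 0.50 for Cd36 in mural cells. Podxl in mural cells was -1.51 at the stricter cell filter, Slc12a2 in B cells 0.57 without cells holding a UMI of another gate, and Bhlhe40 in B cells 0.14 as a mean over cells. Depth limits mural cells most, where 1 Csf2-/- UMI is 4.10 CPM. No paired analysis was possible because each group is 1 library, and for the same reason no replicate could be left out. Removing Scrublet doublets left all 12 counts within 1.5 times, and keeping Xist-only cells did so for the 2 all-lineage counts, the only ones run there.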
